A study of Mus musculus with 9 samples.

Results

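The Pax genes encode transcription factors that bind DNA through a paired domain, and the mouse has 9 of them, Pax1 to Pax9. All 9 were found by symbol among the 48397 gene symbols counted in RNA-sequencing libraries of embryonic cardiac outflow tracts. The family was chosen by the read counts of Pax6, which DESeq2 called different between the genotypes in these same libraries, so the genotype differences of its members are given as descriptions and nothing is supported with them. The tissue, the arterial pole of the heart, was dissected from mouse embryos of the C57BL/6J background at embryonic day 12.5. The mutant embryos were homozygous for a deletion of the anterior second heart field enhancer of Nkx2-5, a cardiac homeobox gene (Nkx2-5delta-enh/delta-enh, called HO, 5 libraries). The littermate controls were Nkx2-5+/+ (called WT, 4 libraries). The labels do not say whether a library came from 1 embryo or from several, so the spread between libraries may be partly technical.

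Pax proteins fall into 4 groups by structure, Pax1 and Pax9, Pax2, Pax5 and Pax8, Pax3 and Pax7, and Pax4 and Pax6. The Pax3, Pax7, Pax4 and Pax6 proteins carry a full homeodomain beside the paired domain, which Pax1 and Pax9 lack. Most family members are known as early selectors of tissues outside the heart muscle, such as eye, kidney, thyroid, skeletal muscle, B cells and pancreatic islets. Pax3 is the member best known in heart development, since neural crest cells that need it contribute to septation of the outflow tract.

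Libraries held 27707435 to 49094225 gene-assigned reads. The 12 outflow tract marker genes examined, among them Actc1, Myh7, Acta2 and Tbx20, all passed the low-count filter (median log2 fold change -0.19, or -0.22 without HO 2, 0 called), with a summed level of 10000 to 14600 CPM in HO libraries and 8410 to 16200 CPM in WT libraries. CPM are counts scaled to a common library size of 1e+06 reads after adjustment by trimmed means (TMM). The groups did not overlap in 2 of these markers, both lower in HO and named after their values were seen. Sema3c had 95.5 to 183 CPM in HO and 190 to 294 CPM in WT, and Rspo3 had 36.7 to 68.8 and 81.4 to 111 CPM. Over all genes tested, the groups did not overlap in 1.80%. Nkx2-5 itself averaged 17.5 ± 4.64 CPM in HO libraries (SD, n = 5) and 36.3 ± 11.9 CPM in WT libraries (SD, n = 4). The HO 2 library stood apart by neuronal transcripts. Its 18 pan-neuronal genes summed to 3930 CPM, against 139 to 161 CPM in the other 4 HO libraries and 124 to 220 CPM in WT libraries, and the Pax6 fold change, its relations with neuronal genes and the marker list medians are also given without it. The count files carry a number in their names whose meaning is not stated. It is 220 for HO 1, HO 2, WT 1 and WT 2, 247 for HO 3, HO 4, WT 3 and WT 4, and 274 for HO 5, and these sets of libraries were compared as well.

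Pax6 encodes the paired and homeodomain factor required for eye, forebrain and islet development. The gene lies on the plus strand of chromosome 2 from 105668900 to 105697364 in mm10. Both RefSeq start windows of Pax6, each from 250 bases before to 50 bases after an annotated start, are shown because Pax6 is the member whose counts separated the genotypes and because the deleted enhancer belongs to a gene for a DNA-binding factor. Capitals mark AAGTG, the core of the TNAAGTG site that NK2 homeodomain factors such as Nkx2-5 are known to bind. Both strands were searched, and each TNAAGTG holds an AAGTG.
Pax6 upstream start, chr2:105668646-105668945, plus strand, GRCm38.p6: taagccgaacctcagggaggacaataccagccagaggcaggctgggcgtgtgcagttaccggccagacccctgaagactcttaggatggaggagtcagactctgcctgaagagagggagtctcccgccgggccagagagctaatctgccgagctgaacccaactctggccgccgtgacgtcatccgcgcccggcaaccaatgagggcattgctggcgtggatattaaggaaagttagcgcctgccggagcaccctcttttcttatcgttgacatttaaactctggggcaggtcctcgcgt
Pax6 downstream start, chr2:105682213-105682512, plus strand, GRCm38.p6: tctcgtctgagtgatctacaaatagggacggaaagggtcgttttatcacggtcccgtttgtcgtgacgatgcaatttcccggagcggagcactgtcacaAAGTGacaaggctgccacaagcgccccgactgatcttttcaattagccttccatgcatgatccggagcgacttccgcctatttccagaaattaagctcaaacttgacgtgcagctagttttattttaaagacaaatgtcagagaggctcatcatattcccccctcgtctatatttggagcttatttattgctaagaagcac
The upstream window held 0 matches to AAGTG and the downstream window held 1, while 46.4% of the 32851 RefSeq windows of the same length held at least 1. Neither Pax6 window held TNAAGTG, which 11.5% of all windows held. Of the 10 windows of 7 Pax genes in that table, 1 window, that of Pax9, held TNAAGTG. These are letter matches in short windows, and counts per gene do not tell which start was used.

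Pax6 was the only Pax gene with reads in every library. Of 1418 reads assigned to the family over all 9 libraries, 1322 belonged to Pax6, or 93.2%. Pax1, Pax2, Pax3, Pax8 and Pax9 shared the other 96 reads, each with 0 reads in at least 6 libraries. Pax4, Pax5 and Pax7 had 0 reads in all 9. A count of 0 allows up to 3 reads in a library, which was 0.0604 to 0.107 CPM in HO libraries and 0.0726 to 0.0872 CPM in WT libraries, counting error only. Pax6 was also the only member that passed the low-count filter of the fit across all genes (1 of 9).

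**Figure D1:**
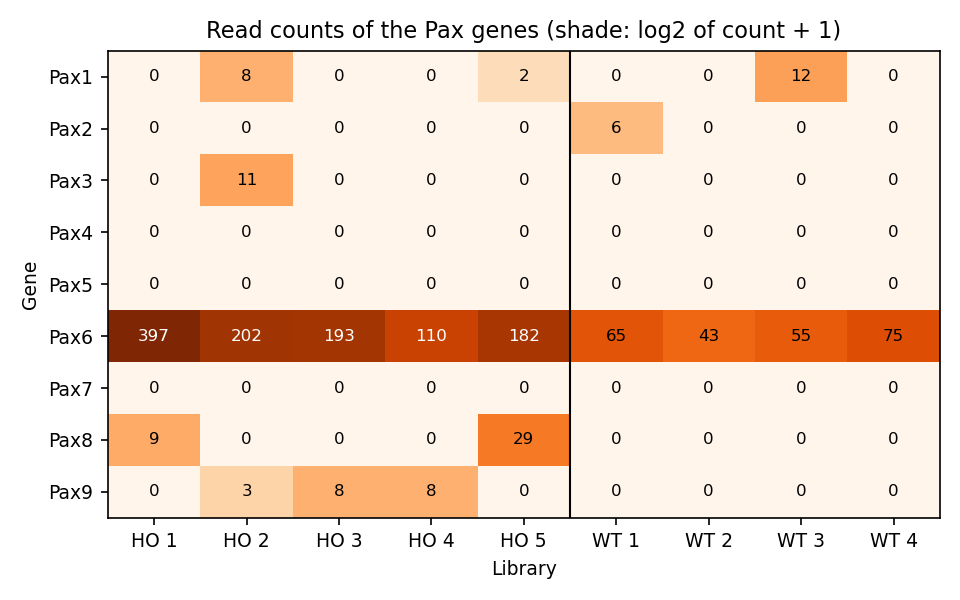
Read counts of the 9 Pax genes (rows) in the 5 HO and 4 WT libraries (columns, HO left of the line), with shade by log2 of the count plus 1. Pax6 held 110 to 397 reads in HO libraries and 43 to 75 in WT libraries, and no other member exceeded 29 reads in any library.

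Pax6 was higher in every HO library than in every WT library. It had 397, 202, 193, 110 and 182 reads in HO libraries 1 to 5, against 65, 43, 55 and 75 reads in WT libraries 1 to 4. At equal depth these were 7.99, 7.05, 5.37, 3.92 and 4.83 CPM in HO, against 1.81, 1.07, 1.6 and 1.82 CPM in WT. The lowest HO library, HO 4, thus stood at 3.92 CPM and the highest WT library, WT 4, at 1.82 CPM, and the groups did not overlap. Among HO libraries, HO 1 and HO 2 were highest, and among WT libraries, WT 2 was lowest.

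The mean was 5.83 ± 1.66 CPM in HO (SD, n = 5) and 1.57 ± 0.351 CPM in WT (SD, n = 4), a 3.71-fold ratio of means. The log2 fold change of HO over WT was 1.89 (SE 0.29) in edgeR. By summed reads, 1084 in HO against 238 in WT, the rate ratio was 3.85 with an exact 95% Poisson interval of 3.34 to 4.44, which covers counting error only. Per kb of annotated exon, the level of Pax6 was 0.499 CPM per kb in HO and 0.134 CPM per kb in WT. Of 16011 tested genes with an annotated length, 17.7% had a lower level per kb than Pax6 in HO and 5.17% in WT, so Pax6 was among the weakly detected genes in both genotypes.

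**Figure D2:**
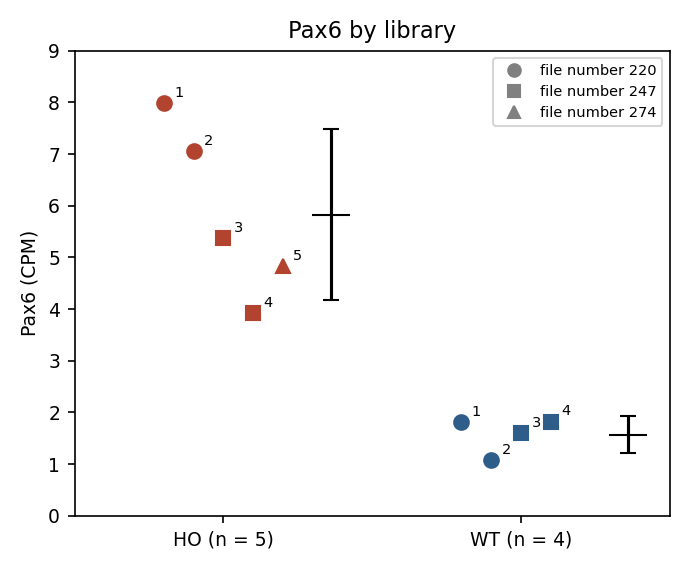
Pax6 level in CPM (vertical axis) in each HO and WT library, numbered by replicate, with marker shape by the number in the count file's name and bars for the mean and SD. The 5 HO libraries lie between 3.92 and 7.99 CPM, all above the 4 WT libraries at 1.07 to 1.82 CPM.

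Calls across the whole table depended on the tool. The quasi-likelihood test of edgeR, adjusted after Benjamini and Hochberg, called 0 of 16522 genes (0%), hence 0 of the 1 Pax gene tested, and at an unadjusted p under 0.05 it had 870 genes (5.27%), Pax6 among them. limma-voom with sample weights did not call Pax6 either, out of 4 genes called. DESeq2 called 40 of 17757 genes (0.225%), of which 11 were higher in HO (0.0619%), and Pax6 was one of these 11. This DESeq2 call is what drew attention to the family, so nothing is read from it. Among all genes tested, the groups did not overlap in 298 (1.80%), and HO was the higher group in 137 (0.829%).

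Since every HO library was above every WT library in Pax6, both sets of libraries that shared a file number had to show HO higher. The size of the difference in each set is described here. In the set numbered 220, Pax6 averaged 7.52 CPM in the 2 HO libraries and 1.44 CPM in the 2 WT libraries. In the set numbered 247, it averaged 4.65 CPM in HO and 1.71 CPM in WT, and HO 5, the lone library numbered 274, stood at 4.83 CPM. The edgeR log2 fold change was 2.40 (SE 0.45) within the first set and 1.46 (SE 0.28) within the second with HO 5 added. The difference between the sets' effects, second minus first, was -0.95 (SE 0.52), with an unadjusted edgeR p of 0.107 and an adjusted p of 0.707. A difference between the sets' effects was thus not detected. In that test 2 of 16303 genes were called (0.0123%), and Pax6 was not one of them.

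A comparison between the sets, with genotype as a term, did not use the contrast that picked Pax6. Here edgeR called 1594 of 16522 genes (9.65%) between the second and the first set, and 4491 (27.2%) had an unadjusted p under 0.05. Pax6 was not called, with a log2 difference of -0.24 (SE 0.30), an unadjusted p of 0.443 and an edgeR adjusted p of 0.653. The adjusted p was between 0.292 and 0.953 under the 12 alternatives to that fit.

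Pax6 was next set against neuronal transcripts, since it is known from the nervous system and 1 HO library was rich in neuronal RNA. Tubb3, a tubulin of young neurons, stood at 25.0, 473, 49.8, 47.8 and 39.3 CPM in HO libraries 1 to 5, against 10.8, 10.3, 37.4 and 43.5 CPM in WT libraries 1 to 4. Without HO 2, Tubb3 lay at 25.0 to 49.8 CPM in HO, which overlapped the WT range of 10.3 to 43.5 CPM. HO 1, the library with the most Pax6, had the least Tubb3 of the HO libraries. HO 2 had 473 CPM of Tubb3 and 7.05 CPM of Pax6, between the Pax6 levels of HO 1 and HO 3.

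Within genotypes no relation between Pax6 and Tubb3 was detected. Over the 9 libraries, deviations of log2 CPM from the genotype means correlated at Pearson's r = 0.31 (exact two-sided permutation p = 0.477 over 2880 pairings within genotype) and Spearman's rho = 0.17 (exact permutation p = 0.722). Without HO 2 the Pearson r was 0.04, and without HO 1 it was 0.69 (exact permutation p = 0.104). Without HO 2 and WT 2, the libraries farthest from the median of Tubb3, it was -0.44 (exact permutation p = 0.167). Only genotype means were removed, and the permutations exchanged libraries across file numbers. Tubb3 in WT followed the file number, at 10.8 and 10.3 CPM (number 220) and 37.4 and 43.5 CPM (number 247). In HO, Tubb3 was at 25.0 and 473 CPM (number 220) and 49.8 and 47.8 CPM (number 247). The part of the file number in this relation was not tested. The Pax6 log2 fold change was 1.79 (SE 0.33) with Tubb3 as a covariate in edgeR, 1.81 (SE 0.29) with the pan-neuronal mean as a covariate, and 1.82 (SE 0.30) without HO 2. In bulk tissue, more cells with Pax6 and more Pax6 per cell cannot be told apart.

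**Figure D3:**
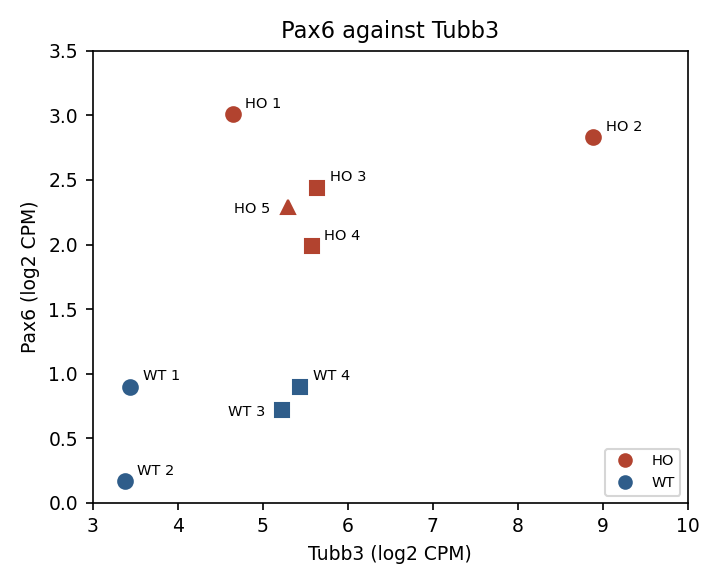
Pax6 (vertical axis, log2 CPM) against Tubb3 (horizontal axis, log2 CPM) in each library, HO in red and WT in blue, with marker shape by the number in the count file's name. HO 2 lies far to the right at 8.89 log2 CPM of Tubb3, while its Pax6, 2.83 log2 CPM, is below that of HO 1 at 3.01.

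The difference in pan-neuronal genes also rested on HO 2. All 17 tested members of the 18 were above 0 in HO over WT, with a median log2 fold change of 2.10, but only 5 of 17 were above 0 without HO 2, with a median of -0.33. Over all genes tested, 50.6% were above 0 and the median was 0.00 with and without HO 2. Nefl, a neurofilament gene, averaged 217 ± 465 CPM in HO (SD, n = 5) and 17.8 ± 18.7 CPM in WT (SD, n = 4), an SD more than the mean in both genotypes. The mean of the list correlated with Pax6 within genotypes at r = 0.38 (exact permutation p = 0.474), and at 0.16 without HO 2.

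In all, 16 relations of Pax6 within genotypes were computed, with Tubb3, Nkx2-5 and the means of 14 marker lists, and 0 passed at an adjusted p of 0.05 (smallest adjusted p 0.864 for Pearson's r and 0.178 for Spearman's rho). The largest Pearson r was with Schwann and satellite glia genes, at r = 0.62 (exact permutation p = 0.108) and rho = 0.80 (exact permutation p = 0.0111, adjusted p = 0.178). Without HO 2 that r was 0.79 (exact permutation p = 0.00347, adjusted p = 0.0556 over the 16). That list had 8 tested members of 11, all above 0 with a median log2 fold change of 1.36, or 5 of 8 with a median of 0.14 without HO 2. Central neural and eye progenitor genes came next, at r = 0.61 (exact permutation p = 0.0913). For that list r was 0.67 without HO 2 (exact permutation p = 0.0851, adjusted p = 0.681) and 0.15 without HO 5 and WT 2. The relation with the islet list had r = 0.23 over all libraries (exact permutation p = 0.566) and 0.94 without WT 1 and WT 2 (exact permutation p = 0.0125, not adjusted). Those are the WT libraries numbered 220. Among HO libraries the islet mean was 2.59 and 2.49 log2 CPM in HO 1 and HO 2 (number 220). It was 0.87 and 0.16 log2 CPM in HO 3 and HO 4 (number 247) and 1.26 in HO 5. Pax6 was also highest in HO 1 and HO 2, and the part of the file number in this r was not tested. Nkx2-5 and Pax6 had r = 0.12 within genotypes (exact permutation p = 0.745).

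In genes of the tissues in which Pax6 acts, no call was made. No member of the central neural and eye, islet, lens, or sine oculis-related, Eya and Dach lists was called by edgeR or by DESeq2. Only 4 of the 20 central neural and eye progenitor genes passed the low-count filter, and 5 had 0 reads throughout. Their median log2 fold change was -0.07, and 0.13 without HO 2, so its sign rested on that library. Sox2, a neural and foregut progenitor factor, averaged 1.33 ± 1.43 CPM in HO (SD, n = 5) and 0.446 ± 0.467 CPM in WT (SD, n = 4), with its highest level, 3.87 CPM, in HO 2, and the groups overlapped. The list summed to 2.17 to 7.33 CPM in HO libraries and 1.91 to 2.81 CPM in WT libraries, and to at most 3.21 CPM in HO without HO 2.

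The islet and enteroendocrine list, where Pax4 and Pax6 act in hormone cells, had 2 tested members of 16. Pcsk1, a prohormone convertase gene, was at -0.98 (SE 1.12), and its groups overlapped. The median of the list was -0.73, or -0.99 without HO 2. The lens list had 5 tested members of 14 and a median of -0.21, or -0.25 over the 4 tested without HO 2. Its most abundant member, Cryab, a small heat shock protein gene also active in heart muscle, averaged 241 ± 20.4 CPM in HO (SD, n = 5) and 282 ± 71.4 CPM in WT (SD, n = 4). Sine oculis-related, Eya and Dach genes, which work with Pax6 in a network first known from the fly eye, had 10 tested members of 12. Of these, 8 were above 0 with a median of 0.33, among them Six4 at 0.37 (SE 0.26) and Eya3 at 0.03 (SE 0.20). Without HO 2, 7 of 10 were above 0 with a median of 0.18.

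**Figure D4:**
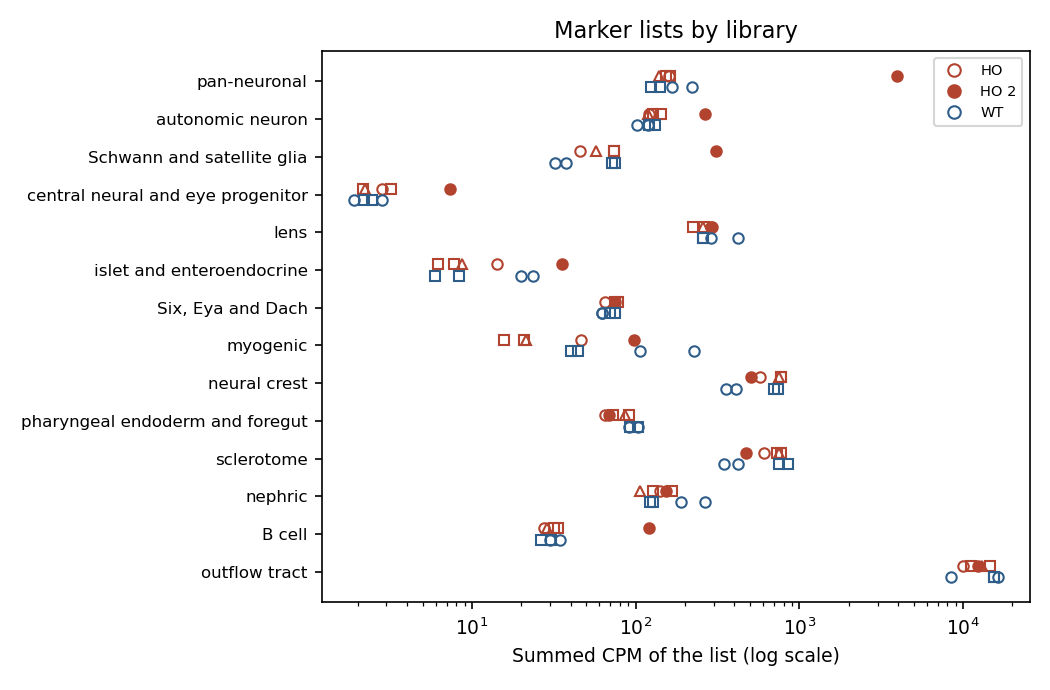
Summed CPM of each marker list (horizontal log axis) in each library, HO in red above WT in blue, with HO 2 filled and marker shape by the number in the count file's name. HO 2 stands apart for pan-neuronal genes at 3930 CPM and for Schwann and satellite glia genes at 308 CPM, while the other HO libraries overlap WT in both lists.

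The Pax6 neighbourhood was examined because Pax6 is known to be controlled by enhancers inside Elp4, a neighbouring gene of the Elongator complex. Elp4 averaged 44.8 ± 2.35 CPM in HO (SD, n = 5) and 38.6 ± 5.08 CPM in WT (SD, n = 4), and the groups overlapped. Its log2 fold change of HO over WT was 0.21 (SE 0.11). Of 17 other genes in the files within 500 kb of Pax6, 6 passed the low-count filter. Their log2 fold changes ran from -0.55 for Wt1, a factor of the epicardium and kidney, to 0.21 for Elp4, and edgeR's adjusted p was 0.896 or more for each. The groups overlapped in all 6.

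The noncoding neighbours of Pax6 had few reads. Pax6os1, annotated on the opposite strand across the Pax6 start with 0 exonic bases shared, had 7 reads in HO 3 and 5 in HO 4 and 0 in the other 7 libraries. Paupar, a noncoding RNA upstream of Pax6, had 4 reads in HO 1 and 7 in HO 3 and 0 elsewhere. Neither gene had a read in any WT library.

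Pax4, the closest relative of Pax6 and a selector of insulin cells, had 0 reads in all libraries. Pax3 and Pax7 mark neural crest and skeletal muscle progenitors. Pax3 had 11 reads in HO 2, or 0.384 CPM, and 0 in the other 4 HO libraries and in all 4 WT libraries, and Pax7 had 0 throughout. The library with Pax3 reads was thus also the one rich in neuronal and glial transcripts, and the part of those cells in the Pax3 reads was not tested. Neural crest genes without Pax3 were abundant, at 503 to 777 summed CPM in HO and 358 to 742 CPM in WT. Of 10 tested members, 0 were called by either tool and 7 were above 0. Their median was 0.36, or 0.44 over the 9 tested without HO 2. Ets1, a factor of crest and endothelium, averaged 190 ± 32.5 CPM in HO (SD, n = 5) and 161 ± 33.2 CPM in WT (SD, n = 4), and Snai2, a factor of cells leaving an epithelium, was at 0.35 (SE 0.20).

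Myogenic genes, the setting of Pax7 and of Pax3 in muscle, had 5 tested members of 12. All 5 were below 0, with a median log2 fold change of -1.63, or -2.30 without HO 2, and 0 of 5 were called. Ckm, muscle creatine kinase, had a median of 9.8 CPM in HO libraries with a range of 5.93 to 83.2, against a median of 58.6 CPM in WT libraries with a range of 29.1 to 201. Myog, the myogenic factor myogenin, averaged 0.447 ± 0.432 CPM in HO (SD, n = 5) and 1.59 ± 1.45 CPM in WT (SD, n = 4). Ckm and Myog both overlapped between the genotypes. Chrna1, a muscle acetylcholine receptor subunit gene named after its values were seen, was the 1 tested member that did not overlap, at 0 to 0.403 CPM in HO and 0.436 to 1.59 CPM in WT, and neither tool called it. It had 20, 3, 0, 4 and 5 reads in HO libraries and 57, 54, 16 and 18 in WT libraries. Over all genes tested, the groups did not overlap in 1.80%. Ckm also followed the file number, at 32.9 and 83.2 CPM in HO 1 and HO 2 (number 220) and 5.93 and 9.8 CPM in HO 3 and HO 4 (number 247), with 87.4 and 201 CPM in WT 1 and WT 2 and 29.1 and 29.8 CPM in WT 3 and WT 4.

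Pax1 and Pax9 pattern the pharyngeal pouches and the sclerotome. Pax9 had 3, 8 and 8 reads in HO 2, HO 3 and HO 4 and 0 in HO 1, HO 5 and all 4 WT libraries, or at most 0.285 CPM. Pax1 had 8 reads in HO 2, 2 in HO 5 and 12 in WT 3 and 0 elsewhere, so it was seen in both genotypes. Pax9 shares 189 exonic bases with Slc25a21 on the opposite strand, which had 64 reads over all libraries, and without a stated strand setting the reads of such a pair cannot be told apart. Pharyngeal endoderm and foregut genes had 8 tested members of 16, with 5 above 0 and a median of 0.29, or 0.01 without HO 2. One of them, the epithelial keratin gene Krt8, was called lower by DESeq2, at 14.9 ± 2.50 CPM in HO (SD, n = 5) and 29.7 ± 3.84 CPM in WT (SD, n = 4), and its groups did not overlap, while edgeR did not call it (adjusted p = 0.213). Over the whole table, DESeq2 called 0.225% of genes, and the groups did not overlap in 1.80% of the genes tested in edgeR. The summed level of the list was 64.5 to 91.1 CPM in HO and 90.4 to 103 CPM in WT. Much of that sum came from Krt8 and another keratin gene, Krt18. Krt18 averaged 36.5 ± 9.81 CPM in HO (SD, n = 5) and 48.6 ± 5.12 CPM in WT (SD, n = 4), and its groups overlapped. Sclerotome genes had 10 tested members of 11 and a median of 0.08, or -0.02 without HO 2, with 5 above 0 in both, and Tbx18, also a factor of the epicardium, was at 0.20 (SE 0.15).

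Pax2, Pax5 and Pax8 are known from kidney, B cells and thyroid. Pax8 had 9 reads in HO 1 and 29 in HO 5, or 0.181 and 0.770 CPM, and 0 in the other 3 HO libraries and in all WT libraries. Pax2 had 6 reads in WT 1, or 0.167 CPM, and 0 in the other 8 libraries, while Pax5 had 0 in all. Neither Pax8 nor Pax2 was thus seen in most libraries of a genotype. Nephric genes had 6 tested members of 10 and a median of -0.23, or -0.38 without HO 2, with Osr1, a factor of intermediate mesoderm, at -0.78 (SE 0.41). B cell genes had 4 tested members of 9, with 3 above 0 and a median of 0.42, or 0.17 without HO 2, and most of their reads were those of Ebf1, a factor that neurons and stromal cells also express, at 118 CPM in HO 2 and at most 32.1 CPM in WT. No nephric or B cell gene was called by either tool. Autonomic neuron genes had 14 tested members of 15 and a median of 0.05, or -0.15 over the 12 tested without HO 2.

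The genes whose levels were most like that of Pax6 were ranked among 13923 tested genes with at least 1 CPM on average. By log2 CPM over the 9 libraries they were Casp6, an executioner caspase gene (r = 0.94), Actr10, a dynactin subunit gene (0.94), A230056P14Rik (0.93), Lmo4, a LIM-domain cofactor gene (0.93), Zik1, a zinc finger gene (0.92), and Tsga10 (0.91). All 6 were higher in HO without overlap, with log2 fold changes of 0.24 to 0.88 against 1.89 for Pax6. Over all genes tested, HO was higher without overlap in 0.829%. This ranking shares the genotype difference with the choice of Pax6, so nothing is read from the separation of these 6. By deviations from the genotype means, the 6 most like Pax6 were Fra10ac1 (0.96), Gpkow, a splicing factor gene (0.96), Fdxr, ferredoxin reductase (0.94), Pcf11, a 3' end processing factor gene (0.94), 0610009B22Rik (0.94) and Gm38037 (0.93). The 2 rankings shared no gene, and the r values are descriptions of 9 libraries.

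**Figure D5:**
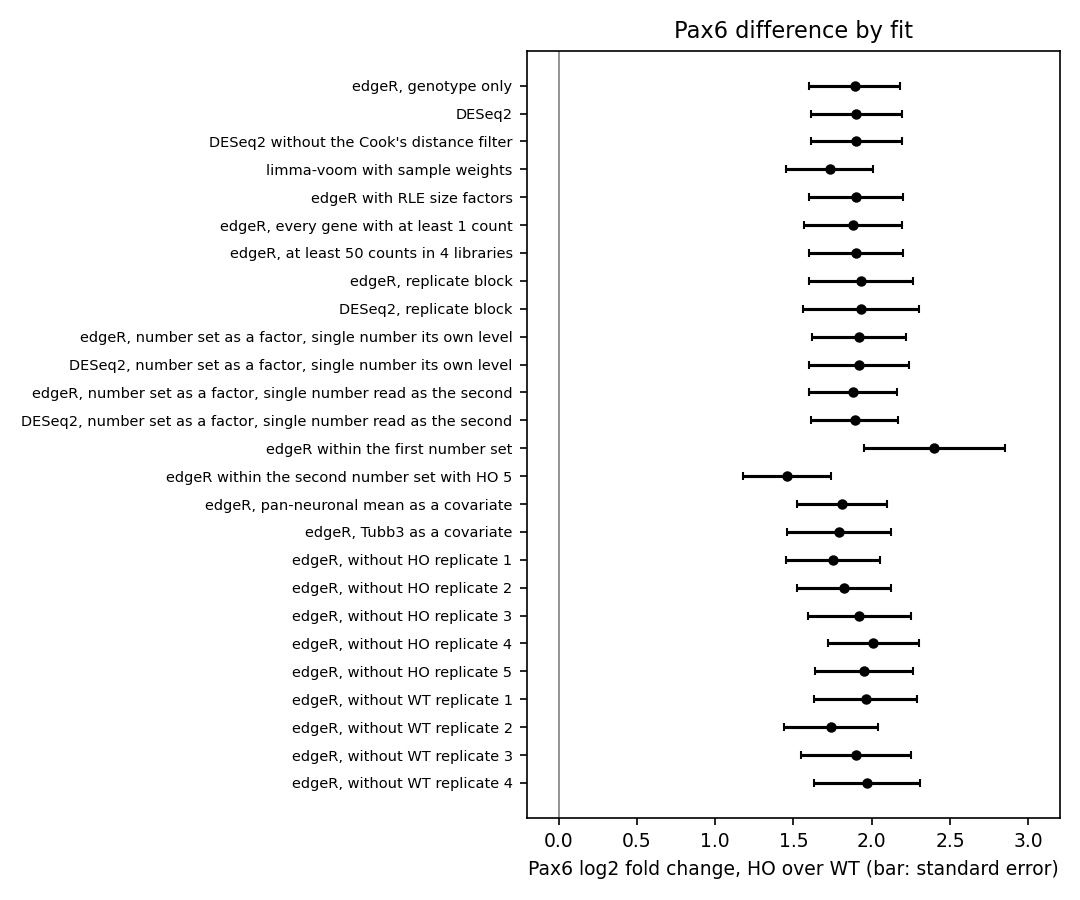
Pax6 log2 fold change of HO over WT (horizontal axis, bars for the standard error) under each fit, including covariates, file number sets and each library left out of edgeR. Values run from 1.46 within the second file number set with HO 5 to 2.40 within the first set, and the fits that left out a library run from 1.74 to 2.01.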

How the data were processed

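Total RNA was made into low-input SMART-Seq libraries, per the labels' protocols. The deposited values are raw read counts by gene symbol, with a file for each library. The submitters' processing notes list the mm10 build and the tools HTSeq 0.6.0, STAR 2.5.0c, DESeq2 and Picard, without their roles. Neither annotation nor strand setting is stated there. Left out were 5 rows without a gene, with 20.6% to 23.5% of the reads.

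The main test of the counts was that of edgeR 4.0.16 under R 4.3.3 (robust quasi-likelihood, TMM, filterByExpr with a minimum count of 10, two-sided, Benjamini-Hochberg over all genes), without a block. CPM use TMM-scaled sizes, with a prior count of 2 on the log2 scale. Alternatives used limma 3.58.1 and DESeq2 1.42.0. Pax6 was correlated with other measures after removing genotype means, with exact permutation within genotype. GENCODE M21 gave positions and exon lengths on mm10, and matched 46394 of 48397 symbols; RefSeq gave start windows.

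The members and lists were chosen with earlier results of these data known. Named genes were the Pax genes, Tubb3, Nkx2-5, genes within 500 kb of Pax6, up to 3 abundant tested members per list (of which examples are given), called list members and the 6 genes most like Pax6 by each measure. List members whose groups did not overlap were added after their values were seen. Libraries of the same replicate number deviated together across genotypes (correlations 0.242, 0.137, 0.227 and 0.176). Those libraries also shared a file number, and no correlation was computed across genotypes for libraries of unlike replicate number. Pairing by replicate number was thus not shown, and a fit with replicate number as the block was run as an alternative. No 2 libraries of the same genotype agreed within sampling noise. In counts simulated for HO against WT over 16522 genes, edgeR recovered 66% and DESeq2 80% of genes changed 4-fold, with 6 of 113 and 41 of 174 calls false. The simulation drew each library independently, without a file number effect or a library like HO 2. These shares thus need not hold for the measured counts.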

Additional observations from a re-analysis of the deposited data

Results flagged for a closer look

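Within a genotype, a library was singled out where it lay far from the others for the range of its group. Chance alone singles out about 1 in 20 groups of normally spread values, and 10 values were singled out among 40 groups examined. A group with reads in only 1 library is always singled out, and a group with reads in 2 libraries readily is. The 1 in 20 does not hold for such groups. Among the Pax genes the values singled out were Pax1 in HO 2 (0.279 CPM) and in WT 3 (0.349 CPM), Pax2 in WT 1 (0.167 CPM), Pax3 in HO 2 (0.384 CPM) and Pax8 in HO 5 (0.770 CPM). Those of Pax1 in WT 3, Pax2 and Pax3 were the only libraries of their groups with reads. No Pax6 value was singled out in either genotype.

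HO 2 stood apart from the other HO libraries in Tubb3 (8.89 log2 CPM), in the pan-neuronal mean (6.80 log2 CPM) and in the Schwann and satellite glia mean (4.49 log2 CPM). WT 2 was low among WT libraries in the Schwann and satellite glia mean (-0.04 log2 CPM), and it also had the lowest Pax6. WT 1 was low among WT libraries in Nkx2-5 (4.24 log2 CPM), and its Pax6 was 1.81 CPM, beside 1.82 CPM in WT 4.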

How the results depend on the processing

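The Pax6 log2 fold change kept its sign in every fit run. With every HO library above every WT library, leaving out libraries or splitting them by file number could not change that sign. The fold change was 1.73 to 2.01 in all fits over both file number sets. It moved only within them, to 2.40 in the first set and 1.46 in the second with HO 5. Leaving out each library gave 1.74 to 2.01 in edgeR and 1.75 to 2.01 in DESeq2, whose runs were added after seeing the data. With the replicate block it was 1.93 in edgeR and DESeq2, and the block changed no Pax6 call of either tool. Pax genes called numbered 1 (Pax6) in each DESeq2 fit, with every library left out in turn as well, and 0 in each edgeR and limma-voom fit. Genes called over the whole table numbered 0 in edgeR and 40 in DESeq2, 58 in DESeq2 without its outlier filter, 4 in limma-voom, 69 in DESeq2 with the replicate block, and 100 or 122 in DESeq2 with the file number as a factor (HO 5 at its own level or read as the second number). Leaving out a library gave 0 to 1 in edgeR, the 1 without WT 3, and 26 to 66 in DESeq2 (38, 66, 38, 62 and 32 without HO 1 to HO 5, and 52, 26, 37 and 48 without WT 1 to WT 4). The difference of the Pax6 effect between the sets ran from -1.37 to -0.61 with a library left out. The correlation of Pax6 with Tubb3 ran from 0.04 to 0.69 with a library left out, the highest without HO 1, and changed sign to -0.44 without HO 2 and WT 2; the cause was not tested. The other Pax genes passed no low-count filter in edgeR unless all genes with a count were kept, while 1 to 5 of them entered some DESeq2 fits, and none was called. Depth limits every Pax gene but Pax6.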
